A study of Mus musculus with 7 samples.

Results

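The miR-23, miR-27 and miR-24 miRNAs are 5 of the 820 mouse miRNAs in the deposited table, taken by name: mmu-miR-23a-3p, mmu-miR-23b-3p, mmu-miR-27a-3p, mmu-miR-27b-3p and mmu-miR-24-3p, written below without the prefix for mouse. All 5 were read in every library and passed the filter of a mean of at least 5 rpm. Here rpm is reads per 1000000 miRNA reads of a library. The libraries came from extracellular vesicles, the membrane particles that cells shed, purified from epididymal fat of male ApoE-/- mice, which lack the lipoprotein ligand ApoE and are prone to atherosclerosis. Of the groups, HFD+Ni (n = 3) had a high-fat diet with nicotine at 2 mg/kg/day and HFD (n = 4) the same diet alone, each for 12 weeks, in animals described as 8 weeks old. ApoE is missing in both groups, and no group on normal chow was analysed here. Whether 1 library is 1 animal is not stated in the labels, and p-values measure only the spread between these libraries, which may be in part technical.

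These miRNAs are cut from paired clusters in which a miR-23, a miR-27 and a miR-24 hairpin lie side by side and can be transcribed as 1 RNA. miR-27 is known in fat for repressing Pparg, the transcription factor that drives adipocyte formation, and so for holding back adipocyte differentiation. miR-23 is known in human cells for repressing glutaminase, which feeds glutamine into metabolism, and miR-24 for repressing cell cycle genes. The clusters are also known for their part in blood vessel growth and are well expressed in endothelial cells, which line the vessels of fat.

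The mature sequences show how alike the members are, and are given 5′ to 3′ from RefSeq (GRCm38.p6), with the seed, bases 2 to 8 that pair with targets, in capitals. RefSeq's table matched 4 of the 5 by name, and miR-23b-3p is named only.
miR-23a-3p: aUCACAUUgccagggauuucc
miR-27a-3p: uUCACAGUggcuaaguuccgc
miR-27b-3p: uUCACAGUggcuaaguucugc
miR-24-3p: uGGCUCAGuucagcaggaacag
The miR-27 pair shares its seed and 20 of 21 bases, and differs by C19U, counted from 1 at the 5′ end with miR-27a-3p first. No other miRNA in that RefSeq table has the miR-27 seed or the miR-23a-3p seed. The search could not include miR-23b-3p, which was not found there by name, so its seed was not compared. The miR-24 seed is shared by miR-5124b and miR-6369 in the deposited table, each read only in HFD replicate 2, with 1 and 2 reads.

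The a cluster lies on the plus strand of chromosome 8 (GRCm38), with Mir23a at 84208518 to 84208592, Mir27a at 84208672 to 84208758 and Mir24-2 at 84208815 to 84208921. It spans 404 bases and lies within no annotated host gene in GENCODE. The b cluster lies on the plus strand of chromosome 13, with Mir23b at 63300484 to 63300557, Mir27b at 63300712 to 63300784 and Mir24-1 at 63301208 to 63301275, spanning 792 bases. All 3 of its hairpins are inside 2010111I01Rik on the same strand, Mir23b in an intron and the others overlapping an exon of at least 1 transcript, and inside an intron of Fancc on the opposite strand.

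miR-24-3p is the product that both clusters share in full. Its hairpins, shown with the mature miRNA in capitals, differ around it, but the 22 mature bases are identical, so its reads cannot be assigned to a cluster.
Mir24-1: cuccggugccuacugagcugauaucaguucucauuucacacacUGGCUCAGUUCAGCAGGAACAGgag
Mir24-2: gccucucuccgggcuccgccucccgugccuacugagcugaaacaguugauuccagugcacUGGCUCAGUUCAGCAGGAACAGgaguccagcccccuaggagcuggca

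Total depth was 53626 to 175892 miRNA reads in HFD+Ni libraries and 77021 to 1055902 in HFD libraries, so 1 read was 18.6 rpm in HFD+Ni replicate 1, the shallowest, and 0.947 rpm in HFD replicate 2, the deepest. Intervals below are 95% Poisson intervals and cover counting error only, since PCR copies are not independent molecules. HFD+Ni replicate 1 stood apart by its epithelial miRNAs (miR-205-5p and miR-200 family members), of which the 6 listed, all read, summed to 45146 rpm there and to 4813 to 13605 rpm in the other 6 libraries. HFD replicates 2 and 4 stood apart by striated muscle miRNAs, at 4300 and 4025 rpm for the 4 of 6 listed members in the table, against 762 to 1156 rpm elsewhere.

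The a and b paralogues had nearly the same number of reads in every library. miR-23a-3p had 503, 3518 and 865 reads in HFD+Ni replicates 1 to 3, where miR-23b-3p had 502, 3395 and 856. In HFD replicates 1 to 4 miR-23a-3p had 1336, 9684, 1326 and 593 reads and miR-23b-3p had 1300, 9510, 1296 and 580. miR-23a-3p was thus the larger in each of the 7 libraries, by 0.199% to 3.50% of its count.

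The miR-27 pair differed as little. miR-27a-3p had 122, 564 and 211 reads in HFD+Ni replicates 1 to 3, where miR-27b-3p had 128, 580 and 223. In HFD replicates 1 to 4 miR-27a-3p had 246, 2876, 377 and 197 reads and miR-27b-3p had 248, 2930, 382 and 197. miR-27b-3p was the larger in 6 libraries and the pair was equal in HFD replicate 4, and the largest gap was 5.38% of the larger count. Such near equality was not particular to these clusters. Among miRNAs with enough reads, 19 pairs of rows had equal counts or differed by at most 5% or 2 reads in every library. Equal pairs needed at least 20 reads per row summed over the libraries, and the other pairs at least 200. The miR-23 pair was among the 19, as were miR-103-3p with miR-107-3p and miR-10a-5p with miR-10b-5p. The miR-27 pair was outside them by its gap of 5.38%. How reads that match both members of a pair were assigned is not given in the sources used here, and whether reads were counted for both was not tested. If they were, sums over the pair hold them more than once.

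**Figure D1:**
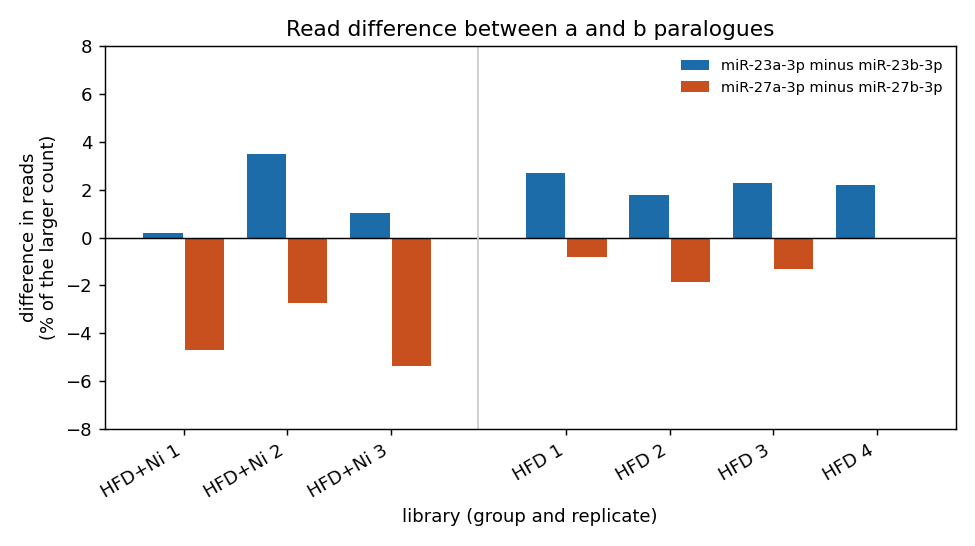
Difference in reads between the a and b paralogue of miR-23 (blue) and miR-27 (orange), as a percentage of the larger count (y axis), in each library (x axis). miR-23a-3p exceeded miR-23b-3p in all 7 libraries and miR-27a-3p was at or below miR-27b-3p in all 7, with no gap above 5.38%.

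The ratio within the miR-27 pair separated the groups by a small amount, which the test could not call at 0.05 with so few libraries. The ratio of miR-27a-3p to miR-27b-3p was 0.953, 0.972 and 0.946 in HFD+Ni replicates 1 to 3 and 0.992, 0.982, 0.987 and 1.00 in HFD replicates 1 to 4, so the groups did not overlap. It averaged 0.957 ± 0.0136 in HFD+Ni (SD, n = 3) and 0.990 ± 0.00784 in HFD (SD, n = 4), a log2 difference of -0.05. The exact two-sided permutation test gave p = 0.0571, the smallest p that 3 against 4 libraries allow, and 0.286 after Benjamini-Hochberg adjustment over the 5 ratios compared. In HFD+Ni the gap rests on 6, 16 and 12 reads. The ratio of miR-23a-3p to miR-23b-3p was 1.02 ± 0.0178 in HFD+Ni and 1.02 ± 0.00385 in HFD (exact permutation p = 0.514, adjusted p = 0.857).

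The arm opposite to each member was almost unread. Over the 7 libraries miR-23a-5p had 9 reads against 17825 for miR-23a-3p, and miR-23b-5p had 11 against 17439 for miR-23b-3p. miR-27a-5p had 19 reads against 4593 for miR-27a-3p, and miR-27b-5p had 4 against 4688 for miR-27b-3p. These 5p arms are shown because each is named for 1 cluster and the sequences differ between the clusters.
miR-23a-5p: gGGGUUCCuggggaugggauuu
miR-23b-5p: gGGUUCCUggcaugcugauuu
miR-27a-5p: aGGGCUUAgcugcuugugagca
miR-27b-5p: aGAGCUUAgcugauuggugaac
In HFD replicate 2, the only library with more than 2 reads of any of them, the counts were 8 for miR-23a-5p, 9 for miR-23b-5p, 19 for miR-27a-5p and 4 for miR-27b-5p. The rows of both clusters' 5p arms thus held reads there. Outside that library there were 1 read of miR-23a-5p in HFD+Ni replicate 3 and 2 reads of miR-23b-5p in HFD+Ni replicate 2. Taking 3 reads as the limit that a count of 0 allows, a library with no read of an arm allowed up to 17.1 to 55.9 rpm in HFD+Ni and up to 25.5 to 39.0 rpm in HFD replicates 1, 3 and 4, so the 5p arms could not be compared between the groups at this depth. miR-3074-5p, from the strand opposite to the miR-24 hairpins, had 6 reads, all in HFD replicate 2. The 5p arms of the miR-24 hairpins, miR-24-1-5p and miR-24-2-5p, had no row under those names in the deposited table, so no level is given.

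By level the members fell into 3 steps. miR-23a-3p averaged 12472 ± 6554 rpm in HFD+Ni (SD, n = 3) and 11173 ± 3864 rpm in HFD (SD, n = 4), rank 19 of 820 by the mean over the 7 libraries, with miR-23b-3p next at rank 20. miR-27b-3p and miR-27a-3p held ranks 37 and 40, and miR-24-3p rank 65. Within each of the 7 libraries miR-23a-3p exceeded miR-27b-3p, by 3.01-fold in HFD replicate 4 to 6.07-fold in HFD+Ni replicate 2, and the Poisson intervals were separate each time. miR-27b-3p exceeded miR-24-3p in all 7 as well, by 1.43-fold in HFD replicate 2 to 8.95-fold in HFD replicate 4, again with separate intervals. The order of ranks within the miR-23 and miR-27 pairs is not read as a difference in level, since their counts were nearly equal. Since the mature miRNAs are 21 or 22 bases long where their sequence is known here, rpm levels need no correction for length, but small RNA libraries can take up different sequences unequally, and this was not tested.

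The 5 rows summed to 2.45%, 4.67% and 2.08% of miRNA reads in HFD+Ni replicates 1 to 3 and 3.96%, 2.56%, 2.98% and 2.06% in HFD replicates 1 to 4. HFD+Ni held the highest library and 2 of the 3 lowest, and the groups overlap. With the miR-23 pair and the miR-27 pair each counted once, the share was 1.60% ± 0.716 in HFD+Ni (SD, n = 3) and 1.51% ± 0.414 in HFD (SD, n = 4).

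**Figure D2:**
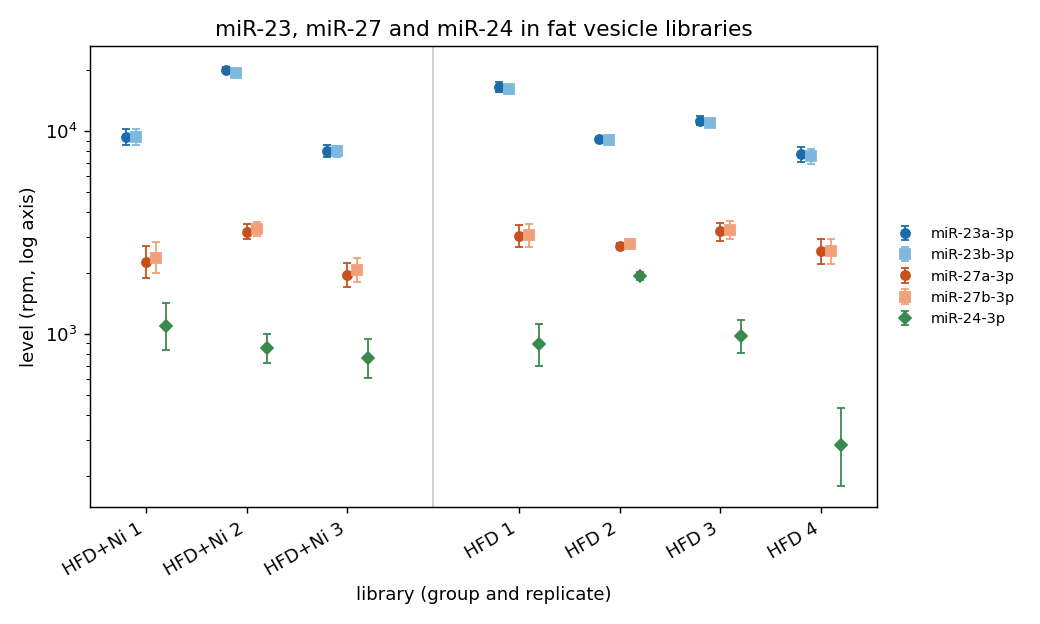
Level of each member (rpm, log axis) in each library, HFD+Ni on the left and HFD on the right, with 95% Poisson intervals as bars. miR-23 lies above miR-27 and miR-27 above miR-24 in every library, and miR-24-3p spans 286 to 1936 rpm within HFD.

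None of the 5 members passed the test for a difference between HFD+Ni and HFD. The comparison asks which vesicle miRNAs differ under nicotine, and was fitted with limma on log2(rpm + 1) over the 387 tested miRNAs. limma called 0 of 387 at adjusted p under 0.05 (0% of those tested) and 11 at unadjusted p under 0.05 (2.84%), and none of the 5 members was among the 11. edgeR called 0 and DESeq2 called 1 of 387 (0.258%) at adjusted p under 0.05, with 28 (7.24%) and 19 (4.91%) at unadjusted p under 0.05, and no member was called by either. Of the 5 members 3 had a log2 fold change above 0 and 2 below, where 52.7% of tested miRNAs were above and 47.3% below. The members' median was 0.10 and that of all tested miRNAs 0.04. Since the rows of each pair had nearly the same counts, their fold changes were nearly the same too, and whether the 5 rows are independent measurements was not tested. The groups overlapped for all 5 members, and did not overlap for 20 of the 387 tested miRNAs (5.17%).

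miR-27, the family known to repress Pparg, had a lower mean in HFD+Ni that did not pass the test. mmu-miR-27b-3p was at 2387, 3297 and 2072 rpm in HFD+Ni replicates 1 to 3, against 3069, 2775, 3252 and 2558 rpm in HFD replicates 1 to 4. HFD+Ni replicates 1 and 3 were below every HFD library, whereas HFD+Ni replicate 2 was above every one. At the edges of the HFD range the counting intervals overlapped, which alone does not settle whether an order is beyond counting error. The interval of HFD+Ni replicate 2 (3035 to 3577 rpm) overlapped that of HFD replicate 3 (2934 to 3595 rpm). The interval of HFD replicate 4 (2213 to 2941 rpm) overlapped those of HFD+Ni replicates 1 (1991 to 2838 rpm) and 3 (1809 to 2362 rpm). The means were 2585 ± 636 rpm in HFD+Ni (SD, n = 3) and 2913 ± 308 rpm in HFD (SD, n = 4). The log2 fold change was -0.19 (SE 0.27, limma adjusted p = 0.886). Its 95% interval of -0.79 to 0.40, or 0.579-fold to 1.32-fold, shows the range of changes that these 7 libraries leave possible.

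miR-27a-3p had nearly the same read counts as miR-27b-3p. mmu-miR-27a-3p was at 2275, 3207 and 1960 rpm in HFD+Ni replicates 1 to 3, against 3044, 2724, 3210 and 2558 rpm in HFD replicates 1 to 4. As for miR-27b-3p, HFD+Ni replicates 1 and 3 were below all HFD libraries, and HFD+Ni replicate 2 lay within the HFD range. The interval of HFD+Ni replicate 2 (2947 to 3482 rpm) overlapped that of HFD replicate 3 (2894 to 3551 rpm), so their order was within counting error. The log2 fold change was -0.24 (SE 0.28, limma adjusted p = 0.851). The sign of both miR-27 members was the same under each of the alternatives run.

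For miR-23, the most abundant family of the clusters, each group held high and low libraries. mmu-miR-23a-3p was at 9380, 20001 and 8037 rpm in HFD+Ni replicates 1 to 3, against 16531, 9171, 11289 and 7699 rpm in HFD replicates 1 to 4. HFD+Ni replicate 2 and HFD replicate 1 were the high libraries, and the lowest of each group lay 2.49-fold below the highest in HFD+Ni and 2.15-fold below in HFD. The log2 fold change was 0.10 (SE 0.34, limma adjusted p = 0.967), with a 95% interval of -0.64 to 0.84.

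mmu-miR-23b-3p was at 9361, 19302 and 7953 rpm in HFD+Ni replicates 1 to 3, against 16086, 9007, 11034 and 7530 rpm in HFD replicates 1 to 4. The same libraries were high and low as for miR-23a-3p, and the groups overlap. Its log2 fold change was 0.11 (SE 0.33, limma adjusted p = 0.967). The sign for miR-23 rested on single libraries and on scaling: it was -0.30 for miR-23a-3p without HFD+Ni replicate 2, -0.06 without HFD replicate 4 and -0.03 with TMM scaling, which moved the median of all tested miRNAs by -0.13.

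miR-24-3p was the least evenly read member within HFD. mmu-miR-24-3p was at 1100, 853 and 762 rpm in HFD+Ni replicates 1 to 3, against 891, 1936, 979 and 286 rpm in HFD replicates 1 to 4. HFD+Ni lay inside the HFD range, which ran over 6.78-fold, against 1.44-fold within HFD+Ni. The value of HFD replicate 4 rests on 22 reads (179 to 432 rpm) and that of HFD replicate 2 on 2044 reads (1853 to 2022 rpm), so these HFD libraries differed beyond counting error. The means were 905 ± 175 rpm in HFD+Ni (SD, n = 3) and 1023 ± 682 rpm in HFD (SD, n = 4).

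On the log2 scale the sign for miR-24-3p was the other way, with a fold change of 0.10 (SE 0.55, limma adjusted p = 0.986). The 95% interval of -1.11 to 1.31, or 0.464-fold to 2.48-fold, holds a doubling and a halving. The log2 fold change was -0.41 without HFD replicate 4 and 0.51 without HFD replicate 2. It was -0.33 in edgeR, -0.14 in DESeq2 and -0.03 with TMM scaling. The 4 of 5 listed smooth muscle and stroma miRNAs in the table summed to 16541, 16493 and 33643 rpm in HFD+Ni replicates 1 to 3, against 19266, 61061, 24655 and 36445 rpm in HFD replicates 1 to 4. The absent member was miR-199a-3p, and miR-199b-3p, which was tested, was not listed and so is not in the sum. The sum was highest in HFD replicate 2, where miR-24-3p was highest, but next highest in HFD replicate 4, where miR-24-3p was lowest, and highest within HFD+Ni in replicate 3, which had the least miR-24-3p of its group. The part of these miRNAs in the miR-24-3p values was not tested.

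**Figure D3:**
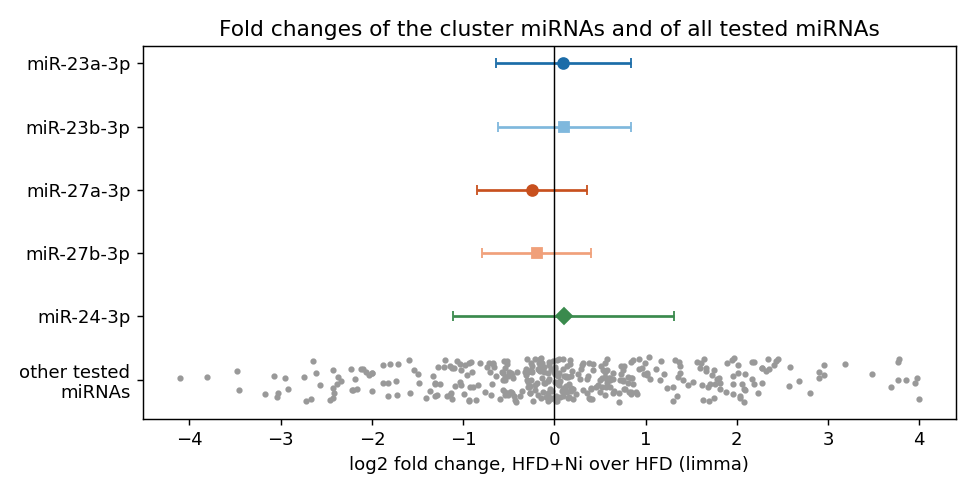
log2 fold change of HFD+Ni over HFD from limma (x axis) for the 5 members with 95% intervals, and below them the other tested miRNAs as grey points placed at random heights. Every member's interval includes 0, and the interval is widest for miR-24-3p, at -1.11 to 1.31.

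The authors' deposited table gives log2 fold changes of HFD+Ni over HFD of 0.16 for miR-23a-3p, 0.16 for miR-23b-3p, -0.22 for miR-27a-3p, -0.18 for miR-27b-3p and -0.24 for miR-24-3p. In the authors' deposited table the FDR of each is 1, and none of the 5 is in the authors' list of 15 changed miRNAs.

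The families were next compared within each library, where the scaling of libraries cancels. The ratio of miR-27 to miR-23, each summed over its pair, was 0.249, 0.165 and 0.252 in HFD+Ni replicates 1 to 3 and 0.187, 0.302, 0.289 and 0.336 in HFD replicates 1 to 4. HFD replicate 1 was the only HFD library within the HFD+Ni range, and the other 3 lay above it. The ratio averaged 0.222 ± 0.0491 in HFD+Ni (SD, n = 3) and 0.279 ± 0.0640 in HFD (SD, n = 4), a log2 difference of -0.32 (exact permutation p = 0.286, adjusted p = 0.714). Without HFD+Ni replicate 2 the difference was -0.12 and without HFD replicate 1 it was -0.50.

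The ratios to miR-24 spread more widely than any difference between the groups. The ratio of miR-23 to miR-24 was 17.0, 46.1 and 20.99 in HFD+Ni replicates 1 to 3 and 36.6, 9.39, 22.8 and 53.3 in HFD replicates 1 to 4 (exact permutation p = 0.971, adjusted p = 0.971). The ratio of miR-27 to miR-24 was 4.24, 7.63 and 5.29 in HFD+Ni replicates 1 to 3 and 6.86, 2.84, 6.60 and 17.9 in HFD replicates 1 to 4 (exact permutation p = 0.743, adjusted p = 0.929). In both ratios HFD replicates 2 and 4 were the extremes, on opposite sides, and HFD+Ni lay between them. The ratios of mature reads between the families were thus not constant from library to library.

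**Figure D4:**
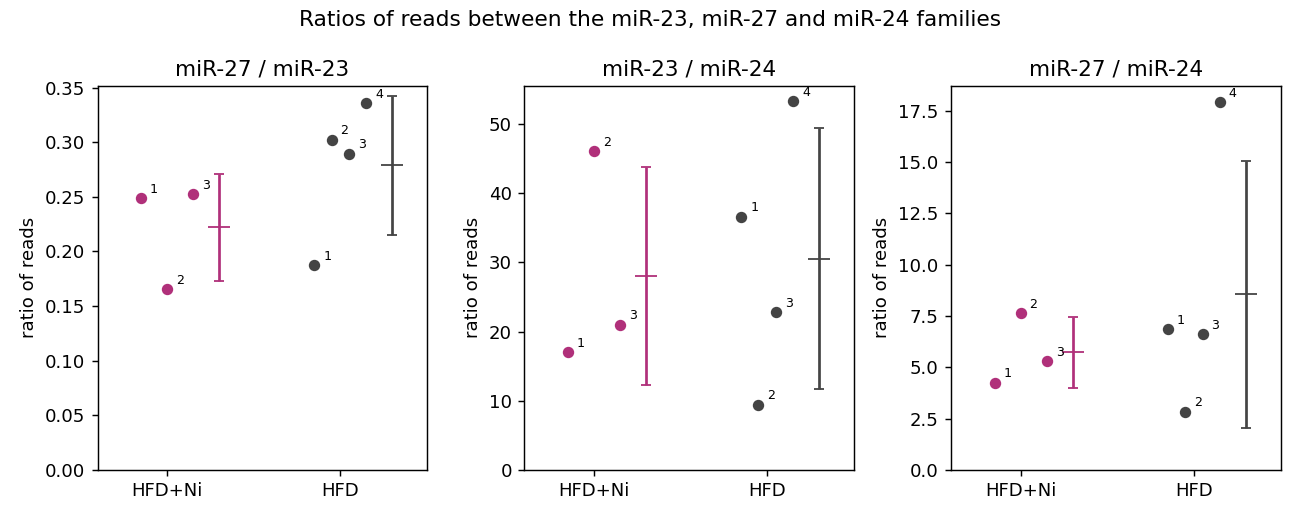
Ratios of reads between the families, each pair of paralogues summed, for HFD+Ni and HFD libraries (points, with replicate numbers) with the mean and SD beside them. The groups overlap in all 3 panels, and the ratios to miR-24 are lowest in HFD replicate 2 and highest in HFD replicate 4.

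Across the 7 libraries the levels of miR-23 and miR-27 were correlated, though not after adjustment. For miR-23a-3p with miR-27b-3p on log2(rpm + 1), Pearson's r was 0.77 (exact permutation p = 0.0278, adjusted p = 0.0833 over the 3 pairs of families) and Spearman's rho 0.79 (exact permutation p = 0.0480, adjusted p = 0.144). Without HFD+Ni replicate 2 and HFD replicate 1, the libraries farthest from the median of miR-23a-3p, r was 0.76. For miR-23a-3p with miR-24-3p, r was 0.20 (exact permutation p = 0.692, adjusted p = 0.708) and rho 0.29 (exact permutation p = 0.556, adjusted p = 0.783), with r = 0.57 without the same libraries. For miR-27b-3p with miR-24-3p, r was 0.19 (exact permutation p = 0.708, adjusted p = 0.708) and rho 0.14 (exact permutation p = 0.783, adjusted p = 0.783), with r = 0.21 without HFD+Ni replicates 2 and 3. The values of a library share its depth and its total, and groups of 3 and 4 are too small for an r of their own. Whether the first r exceeds the others was not tested.

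The miRNAs most like the clusters were sought among the 196 others with a mean of at least 50 rpm, by Pearson's r with the summed level of the 5 members over the 7 libraries on the log2 scale. The closest were miR-125a-5p (r = 0.86), miR-339-5p (r = 0.79), miR-497a-5p (r = 0.78), miR-6395 (r = 0.77) and miR-150-5p (r = 0.75), and these r are a description. The sum is mainly miR-23: r was 0.99 for miR-23a-3p, 0.82 for miR-27b-3p and 0.26 for miR-24-3p. miR-125a-5p, a relative of the worm miRNA lin-4, was at 14806, 21087 and 12692 rpm in HFD+Ni replicates 1 to 3 and 24178, 13782, 14414 and 15074 rpm in HFD replicates 1 to 4. It was highest in HFD replicate 1 and HFD+Ni replicate 2, as miR-23 was. miR-6395 had at most 20 reads in any library.

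Endothelial miRNAs had a lower sum in HFD+Ni, where the clusters overlapped between the groups. The 3 of 4 listed members in the table, miR-126a-3p and -5p and miR-126b-3p, summed to 12979, 18597 and 18879 rpm in HFD+Ni replicates 1 to 3 and 21406, 23163, 20518 and 32381 rpm in HFD replicates 1 to 4. Every HFD+Ni library was thus below every HFD library, and HFD replicate 4, with the most endothelial miRNA, had the least miR-23 of its group. Leukocyte miRNAs, all 6 listed members, summed to 3431 to 4571 rpm in HFD+Ni and 5558 to 7115 rpm in HFD. Erythroid miRNAs, with 3 of 4 listed in the table, summed to 0 to 167 rpm in HFD+Ni and 8.51 to 114 rpm in HFD. The absent member was miR-486a-5p, and miR-486b-5p, which was tested, was not listed and so is not in the sum. Testis and epididymis miRNAs, with 8 of 9 in the table, summed to 1200 to 2360 rpm in HFD+Ni and 599 to 1077 rpm in HFD. The endothelial, leukocyte, and testis and epididymis sums thus did not overlap between the groups. The erythroid, smooth muscle and stroma, striated muscle and epithelial sums did. Taken singly, 20 of the 387 tested miRNAs (5.17%) did not overlap. limma called 0 of the 387, with adjusted p = 0.830 for both miR-126a-3p and miR-126a-5p. The sums themselves were not tested. In bulk vesicle RNA fewer vesicles from a cell type and less of a miRNA per vesicle cannot be told apart, and the part of these markers in the cluster levels was not tested. No list of adipocyte miRNAs was set, so the labelled fat origin itself was not tested.

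Other miRNAs known to oppose adipocyte differentiation lay on both sides of 0. Of 16 listed beside miR-27, 15 were in the table and 10 were tested, 5 above 0 and 5 below, with 0 called in either direction by limma and 0 at unadjusted p under 0.05, and a median log2 fold change of -0.02. The most abundant after the growth-restraining let-7a-5p and let-7b-5p were miR-145a-5p, a smooth muscle miRNA, and miR-221-3p, which restrains the cell cycle inhibitor p27. miR-145a-5p was at 2729 ± 833 rpm in HFD+Ni (SD, n = 3) and 4398 ± 3120 rpm in HFD (SD, n = 4), with a log2 fold change of -0.47. miR-221-3p was at 1148 ± 108 rpm in HFD+Ni and 828 ± 252 rpm in HFD, with a log2 fold change of 0.52 (limma adjusted p = 0.830 for each).

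Of 21 miRNAs listed as promoting adipocyte differentiation, all were tested, 8 above 0 and 13 below, where 52.7% of all tested miRNAs were above and 47.3% below. Their median log2 fold change was -0.15, against 0.04 for all tested miRNAs. limma called 0 of the 21 in either direction, and 3 were at unadjusted p under 0.05, 2 higher and 1 lower, against 11 of all 387 tested (2.84%). The 2 higher were miR-204-5p and miR-211-5p, with log2 fold changes of 1.68 and 1.61, and the lower was miR-21a-5p, at -0.59. Among the 13 below 0, miR-103-3p and miR-107-3p had nearly equal counts. Whether the rows of this list are independent measurements was not tested. miR-143-3p, made from the same locus as miR-145a-5p, was at 18362 ± 10105 rpm in HFD+Ni (SD, n = 3) and 29926 ± 16309 rpm in HFD (SD, n = 4), with a log2 fold change of -0.67 (limma adjusted p = 0.830). miR-30a-5p, at -0.14, miR-30d-5p, at -0.15, and miR-26a-5p, at -0.21, had log2 fold changes close to that of miR-27b-3p.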

How the data were processed

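Small RNA was sequenced from 7 vesicle libraries, 3 HFD+Ni and 4 HFD, grouped by the treatment label, all with batch label 1. The deposited table is named TPM and each column the authors deposited sums to 1000000. With 1 step size per library for all miRNAs, whatever their length, 100% of its values were whole reads, within 0.1 read, so the values were taken as rpm and whole reads recovered from the deposited rpm gave the read counts. The submitters' processing notes name edgeR and the build GRCm38 (mm10). For the aligner, the counter and the miRNA annotation, the labels and files name nothing (not given in the sources used here). Beside the rpm, the authors deposited their own p-value, FDR and log2 fold change. In their list of 15 miRNAs, 1 per-sample column matches no label and was not used. No column of that list is labelled as HFD replicate 2, and whether the list rests on the same libraries was not tested.

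For the comparison of HFD+Ni with HFD, log2(rpm + 1) was fitted in limma 3.58.1 under R 4.3.3 with a mean-variance trend. Tests were two-sided and adjusted by Benjamini-Hochberg over the 387 miRNAs averaging at least 5 rpm, at a threshold of 0.05. edgeR 4.0.16 and DESeq2 1.42.0 were run on the recovered reads. The fits were tested on simulated data. Ratios were compared by exact permutation of the group labels, with 35 arrangements. The smallest two-sided p of that test is 0.0571, so none of the 5 ratios could pass 0.05, and their p-values decide nothing at that threshold. Alternatives were other pseudocounts and filters, TMM scaling, library weights, a replicate block, and libraries left out. The correlations between families and the fit with near-equal pairs counted once were chosen after the data were seen. The members, the lists and the tests were chosen with earlier results of these data known. Named miRNAs are the members, other products of their hairpins, seed relatives, the 5 most like the summed members, and up to 4 abundant miRNAs of each list. A few others are named for the marker lists, for nearly equal counts or for their unadjusted p. Positions are from GENCODE M21 and RefSeq, both on GRCm38.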

Additional observations from a re-analysis of the deposited data

How the results depend on the processing

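In limma no member passed the corrected threshold under any alternative run, with adjusted p from 0.699 to 0.996. The count of called miRNAs was 0 in each limma fit and in edgeR, and 1 in DESeq2. miR-27a-3p and miR-27b-3p were below 0 under each alternative. For miR-23a-3p and miR-23b-3p the log2 fold change reversed to -0.030 and -0.020 with TMM scaling and to -0.061 and -0.051 with the replicate block. For miR-24-3p it reversed to -0.33 in edgeR, -0.14 in DESeq2, -0.026 with TMM scaling, -0.26 with library weights and -0.41 with the replicate block. Replicate numbers were not used to pair the libraries in the main fit. The deviations of same-numbered libraries correlated at 0.02, 0.19 and -0.10. These values alone cannot decide whether the libraries were paired by design, which was not tested.

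With 1 library left out at a time, log2 fold changes ran from -0.30 to 0.35 for miR-23a-3p, -0.28 to 0.36 for miR-23b-3p, -0.44 to -0.09 for miR-27a-3p, -0.38 to -0.05 for miR-27b-3p and -0.41 to 0.51 for miR-24-3p. The differences in log2 ratio ran from -0.48 to 0.36 for miR-23 over miR-24, -0.75 to 0.14 for miR-27 over miR-24, -0.50 to -0.12 for miR-27 over miR-23, -0.06 to -0.04 for miR-27a-3p over miR-27b-3p and -0.024 to 0.00058 for miR-23a-3p over miR-23b-3p. Against 0.0011 with all libraries, miR-23 over miR-24 was -0.19 with both HFD replicate 2 and HFD+Ni replicate 1 left out. Against -0.32, miR-27 over miR-24 was 0.14 with the replicate block. Counting the pairs once is what lowers the summed share. The replicate block leaves HFD replicate 4 without a partner, and its log2 fold changes and ratio differences equal those without that library, so it is no separate alternative to leaving it out. The cause of the reversals with edgeR, DESeq2, TMM scaling and library weights was not tested. Depth limits miR-24-3p in HFD replicate 4 and the 5p arms.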
